A study of Mus musculus with 9 samples.

Results

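The cadherins and non-clustered protocadherins were followed in single neurons of the developing mouse ventral midbrain. The family was taken as every protein-coding gene of the count tables whose symbol is Cdh or Pcdh followed by a number, with Pcdh11x included. This gave 34 of the 32661 genes counted, 22 Cdh and 12 Pcdh genes. The clustered protocadherins carry other symbols and were not members. The mouse line was VGAT-Cre:Ai14:Pitx3-GFP. Its Cre, driven from the gene of the vesicular GABA transporter (VGAT), turns on tdTomato (tdT) for the rest of a cell's life, and its GFP is driven by Pitx3, a transcription factor of midbrain dopamine neurons. All cells therefore came from animals carrying both reporters and no other treatment. Dissociated ventral midbrain was sorted by fluorescence onto plates of up to 384 wells at embryonic day 16 (E16) or at the day of birth (P0), with tissue of several litters used at each stage. Cells gated on tdT filled 4 plates at E16 and 3 at P0 (VGAT plates), and cells with tdT and GFP filled 1 plate at each stage (VGAT+PITX3 plates). A tdT+ cell has expressed VGAT at some time, and need not express it when sorted. Nothing in the labels says that plates of a group came from separate animals, so the p-values measure the spread between plates, which may be technical.

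Cadherins are membrane proteins that bind their like on the next cell through extracellular cadherin repeats stabilised by calcium. Classical cadherins of type I and type II hold on to the actin cytoskeleton through beta-catenin and alpha-catenin, and neurons that carry the same cadherins tend to sort together into one nucleus or layer. The delta-protocadherins bind more weakly and signal through other cytoplasmic partners, and they act in axon outgrowth, dendrite shape and synapse formation. Cdh13 lacks a cytoplasmic part and is held by a lipid anchor, and Cdh23 and Pcdh15 are best known as a pair that forms the tip link of sensory hair cells. The ventral midbrain holds dopamine neurons of the substantia nigra pars compacta and ventral tegmental area (VTA) beside GABAergic neurons of several nuclei. The comparisons ask which adhesion genes differ between these neighbours.

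A well was used if it showed 2000 genes or more, no more than 50000 counts and a mitochondrial share under 15%, which left 2034 of 3455 wells. They were 1459 VGAT and 575 VGAT+PITX3 cells, with 1435919 to 5408710 counts per plate. Counts were summed per plate and given as CPM, the standard rate scaled to the plate's total count and composition. By the plate's total count alone, without the factor for composition, 3 counts were 0.555 to 2.09 CPM. The plate is the replicate throughout. In sums of cells, fewer cells with a gene and less RNA per cell cannot be told apart. The sort labels were checked against defining genes: Th, the enzyme of dopamine synthesis, was at 0.189 to 6.13 CPM on VGAT plates and 471 to 563 CPM on VGAT+PITX3 plates, and Pitx3 was at 0 to 0.379 and 77.6 to 147 CPM. Slc32a1, which encodes VGAT, was found in both, at 157 to 323 and 224 to 283 CPM. The GABA synthesis genes went opposite ways, with Gad1 at 791 to 1204 and 10.3 to 14.4 CPM and Gad2 at 490 to 647 and 931 to 1039 CPM. Summed over 8 markers of astrocytes and radial glia, VGAT P0 replicate 2 stood apart at 414 CPM against a median of 51.8 CPM over VGAT plates, and the VGAT+PITX3 plates were at 202 and 233 CPM. The 5 endothelial markers summed to at most 9.23 CPM and 5 of the 6 mural and fibroblast markers, the ones measured, to at most 7.17 CPM on any plate. The cell names carry a second plate label, which names the other stage for 4 of the 7 VGAT plates. The first label matches the sample titles and was used, and the members' calls between stages are also given with the second.

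Within the family, 27 members had enough counts to be tested, and the other 7 were close to absent. Those 7 were Cdh1 (E-cadherin of epithelia), Cdh3, Cdh5 (VE-cadherin of endothelium), Cdh17, Cdh19, Cdh26 and Pcdh12, which had between 2 and 17 counts each in all kept wells together. Cdh16 was not analysed here. In cells thinned to 4000 counts, Cdh17 and Pcdh12 were found in 0 of 1956 cells, which allows a share of up to 0.153% of cells with a count. A cell nevertheless carried many members at once. After the same thinning the median cell had 8 to 10 members on each plate, the highest cell had 18, and no cell had 0.

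The members were put in order by their exonic counts, in which a molecule is counted once by its 3′ tag. Which of the exonic and total orders is nearer to mRNA abundance was not tested, and they differ for genes with many intronic counts: Cdh18 was in place 27 by exonic and 11 by total counts on VGAT plates, and Pcdh9 in place 7 and 1. On the VGAT plates the exonic order was led by the delta-protocadherins Pcdh17 (551 ± 70.3 CPM, SD, n = 7 plates), Pcdh10 (427 ± 90.6 CPM), then the lipid-anchored Cdh13 (343 ± 49.2 CPM) and the delta-2 protocadherin Pcdh19 (338 ± 44.7 CPM). Cdh13 and Pcdh19 lay within each other's spread. On the 2 VGAT+PITX3 plates the exonic order began with Pcdh10 (822 and 859 CPM), followed by Pcdh17 (454 and 531 CPM) and Cdh4 (345 and 448 CPM). N-cadherin (Cdh2), the classical cadherin shared by most neurons, was in place 17 of the VGAT order with 38.5 ± 4.97 CPM of exonic counts. The muscle cadherin Cdh15 (M-cadherin) was the lowest member tested but one, at 2.81 ± 1.52 CPM.

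Many members were seen mostly through their introns. Over the 27 members tested, the median share of intronic counts was 54.9%, against 10.3% over all 14624 genes tested and 26.0% of all counts. The share went from 0% for Pcdh8 and Pcdh20, whose genes span 4.54 and 6.65 kb, to 99.4% for Cdh18, which spans 925 kb. Pcdh9 (span 877 kb) was at 94.0%, Pcdh15 (1550.4 kb) at 91.8% and Cdh12 (1140.3 kb) at 92.3%. Across the 27 genes the intronic share went with the span of the gene (Spearman's rho 0.80, a description over genes measured in the same cells). With exons and introns together, Pcdh9 was the highest member on VGAT plates, at 2403 ± 507 CPM, while its exonic level was 206 ± 38.1 CPM. The comparisons below use exonic plus intronic counts, and calls that change with exonic counts alone are named. Cdh18, with 52 exonic of 8570 counts, could not be fitted with exonic counts, so its calls in Pax5 and Nkx2-2 cells rest on intronic counts. The plot of levels by plate shows the 27 members.

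**Figure D1:**
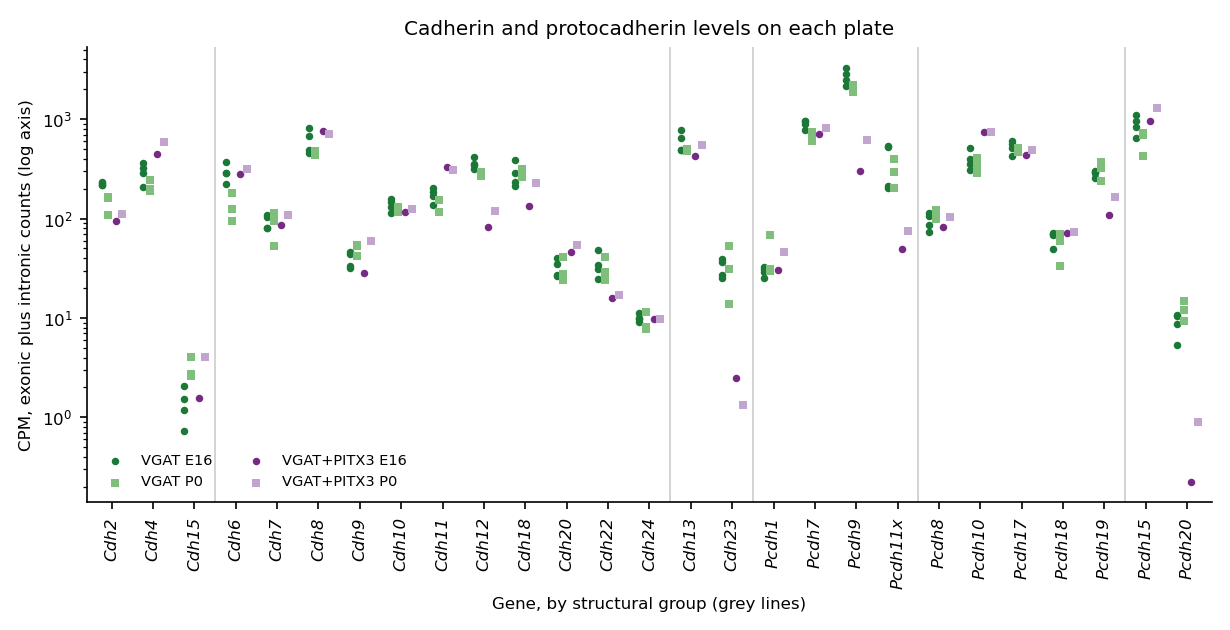
Level of each of the 27 tested members (horizontal axis, in structural groups parted by grey lines) in CPM of exonic plus intronic counts (vertical log axis), with 1 point for each of the 9 plates. The VGAT+PITX3 points lie clear below the VGAT points for Pcdh9, Cdh12, Cdh23 and Pcdh20 and above them for Cdh4, Cdh11 and Pcdh10.

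Cells sorted for VGAT and Pitx3 differed from VGAT cells in many of these adhesion genes. Of 27 members tested, 4 were higher and 7 lower in VGAT+PITX3 cells, beside 4.68% and 4.04% of all genes tested (edgeR quasi-likelihood test over 9 plates with stage as a covariate, Benjamini-Hochberg adjusted p under 0.05). In all, 40.7% of the members and 8.73% of the genes passed. The VGAT and VGAT+PITX3 plates did not overlap for 12 of the 27 members, against 14.5% of genes. The median log2 fold change was -0.10 over the members and -0.00076 over all genes, so the family did not move one way. Both directions were found among classical cadherins and among protocadherins. Without the VGAT+PITX3 plate at E16, 7 members passed, and with the second plate label 11. Other markers moved with the sort. Of the 3 glutamate neuron markers, Slc17a6 was at 0 to 14.9 CPM on VGAT plates and 106 and 205 CPM on VGAT+PITX3 plates. Slc17a8 (1.33 to 10.2 against 1.35 and 4.01 CPM) and Slc17a7 (0 to 2.76 against 0.446 and 0.45 CPM) were low on both. Summed markers of astrocytes and radial glia were higher on the VGAT+PITX3 plates than on 6 of 7 VGAT plates. Their part in these results was not tested.

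The members higher in VGAT+PITX3 cells were Cdh11, Cdh4, Pcdh10 and Cdh20. Cdh11, a type II cadherin first known from bone cells, was at 116 to 204 CPM with a median of 154 over the 7 VGAT plates, and at 329 CPM at E16 and 307 CPM at P0 on the VGAT+PITX3 plates. Both VGAT+PITX3 plates were above every VGAT plate (log2 fold change 1.08, SE 0.15, adjusted p = 9.1e-05). Cdh4 (R-cadherin), a type I cadherin with a part in axon growth, was at 187 to 366 CPM with a median of 243 on VGAT plates and 441 CPM at E16 and 593 CPM at P0 on VGAT+PITX3 plates. Again the groups did not overlap (log2 fold change 1.05, SE 0.21, adjusted p = 0.0054), and without the VGAT+PITX3 plate at P0 the adjusted p was 0.23. Pcdh10 (OL-protocadherin), a delta-2 protocadherin with a part in axon growth through the basal forebrain, was at 288 to 511 CPM with a median of 355 against 740.0 CPM at E16 and 735 CPM at P0. Both VGAT+PITX3 values were above the whole VGAT range (log2 fold change 1.00, SE 0.16, adjusted p = 6.0e-04). Cdh20, a low type II cadherin, was at 24.1 to 40.8 CPM with a median of 27.4 against 46.1 CPM at E16 and 54.4 CPM at P0. Its groups did not overlap either, but the difference was smaller and close to the threshold (log2 fold change 0.66, SE 0.20, adjusted p = 0.049), and it passed under 7 of 17 other settings, not with exonic counts (adjusted p = 0.20).

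The members lower in VGAT+PITX3 cells were Pcdh20, Cdh23, Pcdh9, Cdh12, Pcdh19, Cdh22 and Cdh2. Pcdh20, a protocadherin outside the delta groups, had 258 counts on the VGAT plates, at 5.39 to 14.7 CPM with a median of 10.5, and 3 counts in all on the VGAT+PITX3 plates, 1 at E16 and 2 at P0. The ratio of the pooled rates was 22.6 with a 95% interval of 7.66 to 110.5 for counting error only (log2 fold change -4.35, SE 0.55, adjusted p = 4.1e-05). Cdh23, the upper part of the tip link in hair cells, was at 13.9 to 53.5 CPM with a median of 31.4 on VGAT plates and at 2.48 CPM at E16 and 1.34 CPM at P0 on VGAT+PITX3 plates, from 11 and 3 counts. No VGAT plate came near these values (log2 fold change -3.92, SE 0.61, adjusted p = 0.002), and the adjusted p was 0.097 without the VGAT+PITX3 plate at E16 and 0.068 with the replicate number as a block. The log2 fold change was -5.85 without cells above 2 times the median count of their plate. Pcdh9, a delta-1 protocadherin and the highest member in VGAT cells by exonic plus intronic counts, was at 1857 to 3295 CPM with a median of 2217 against 302 CPM at E16 and 616 CPM at P0. The fall held for exonic counts alone, with 28.6 and 55.9 CPM against 153 to 266 CPM (log2 fold change -2.37, SE 0.31, adjusted p = 2.8e-04 on all counts). The size rested on the plates: the log2 fold change was -1.73 without the VGAT+PITX3 plate at E16 and -3.16 without that at P0, and for Pcdh20 these were -3.70 and -5.12.

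Cdh12, a type II cadherin of brain, was at 266 to 419.9 CPM with a median of 318 in VGAT cells and 81.5 CPM at E16 and 118 CPM at P0 in VGAT+PITX3 cells (log2 fold change -1.70, SE 0.19, adjusted p = 1.1e-05). A second annotated gene, Gm49685, lies on the same strand within Cdh12 and shares exon sequence with it, and its level differed the same way, at 140.4 to 221 CPM on VGAT plates and 45.9 to 59.8 CPM on VGAT+PITX3 plates. How reads were divided between them was not tested. Pcdh19, an X-linked delta-2 protocadherin whose loss in people causes an epilepsy, was at 241 to 367 CPM with a median of 292 against 109 CPM at E16 and 165 CPM at P0 (log2 fold change -1.15, SE 0.17, adjusted p = 1.8e-04). Cdh22 was at 24.1 to 48.6 CPM with a median of 31.0 against 15.98 CPM at E16 and 16.9 CPM at P0 (log2 fold change -1.002, SE 0.27, adjusted p = 0.032), with every VGAT plate above both. Its adjusted p was 0.40 and 0.13 without the VGAT+PITX3 plate at E16 or at P0, 0.054 without VGAT E16 replicate 1 and 0.087 without cells above 2 times the median count. Cdh2 was at 109 to 235 CPM with a median of 217 against 94.8 CPM at E16 and 111 CPM at P0. Here the plates overlapped, since VGAT P0 replicate 3 was at 109 CPM (log2 fold change -0.81, SE 0.20, adjusted p = 0.015), and the adjusted p was 0.47 without the VGAT+PITX3 plate at E16, 0.051 with the second plate label and 0.0504 with the replicate number as a block.

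**Figure D2:**
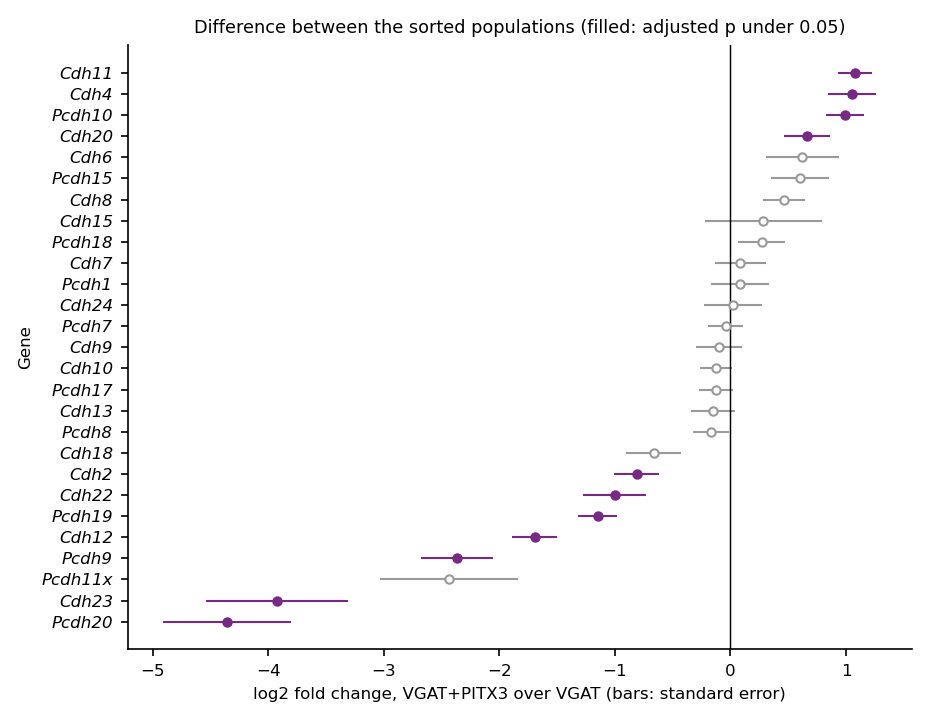
log2 fold change of each tested member between VGAT+PITX3 and VGAT plates (horizontal axis, bars are standard errors), in order of size, with filled points for an adjusted p under 0.05. The 7 lower members run from -0.81 for Cdh2 to -4.35 for Pcdh20, and the 4 higher ones from 0.66 for Cdh20 to 1.08 for Cdh11. Pcdh20 and Cdh23 lie furthest from 0 and had only 3 and 14 counts on the VGAT+PITX3 plates.

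For each of the 11 members past the threshold, the mean share of cells with a count differed between the sorts in the direction of the sums. The shares come from the same counts as the sums. Plates overlapped for Cdh2 (30.8% to 57.9% of VGAT against 27.8% to 30.9% of VGAT+PITX3 cells, thinned to 4000 counts). They also did for Cdh22 (6.51% to 14.0% against 6.02% to 6.83%) and Cdh20 (4.92% to 14.0% against 13.4% to 15.3%). After thinning to 4000 counts, Pcdh10 was found in 82.0% ± 1.81 (SD, n = 2 plates) of VGAT+PITX3 cells and 59.2% ± 4.82 (n = 7) of VGAT cells. Cdh4 was found in 70.3% ± 11.4 and 40.3% ± 2.70, and Cdh11 in 56.8% ± 0.358 and 34.4% ± 8.35. In the other direction, Pcdh9 was found in 47.1% ± 14.1 and 81.7% ± 5.18, Pcdh19 in 23.6% ± 6.40 and 52.2% ± 5.97, and Cdh23 in 0.368% ± 0.0475 and 8.75% ± 4.01. Without thinning, the mean shares in VGAT+PITX3 and VGAT cells were 92.8% and 82.6% for Pcdh10, 59.5% and 94.7% for Pcdh9, and 0.862% and 18.1% for Cdh23, in the same order. For scale, the endothelial Cdh5 was found in 5 of the 1956 thinned cells.

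The other 16 tested members did not pass. Pcdh11x, an X-linked delta-1 protocadherin, had a large but uneven difference, at 204 to 537 CPM with a median of 292 against 49.3 CPM at E16 and 75.8 CPM at P0 with no overlap (log2 fold change -2.44, SE 0.60, adjusted p = 0.054). It passed with DESeq2 and under 4 further settings. Among the members highest in exonic plus intronic counts, Pcdh15 was at 429 to 1094 CPM with a median of 723 against 948 CPM at E16 and 1281 CPM at P0 (log2 fold change 0.60 ± 0.25, adjusted p = 0.23, past the threshold without the filter on low counts), and Cdh8 at 440.2 to 823 CPM with a median of 481 against 761 CPM at E16 and 715 CPM at P0 (0.46 ± 0.18, adjusted p = 0.17, past it without that filter and without VGAT E16 replicate 3). Pcdh7, Cdh13 and Pcdh17 had log2 fold changes of -0.04 ± 0.15, -0.15 ± 0.19 and -0.12 ± 0.14, with adjusted p of 0.94, 0.79 and 0.77. Cdh18 (-0.66 ± 0.24, adjusted p = 0.13) passed with DESeq2, without VGAT E16 replicate 4, and when genes with low counts were not filtered out. Pcdh18 (0.27 ± 0.20, adjusted p = 0.58) passed only with the replicate number as a block. The other 8 lay between -0.17 and 0.62, with Pcdh8 and Cdh6 at the ends.

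The members that differed are spread over 9 chromosomes. Positions are those of GENCODE M21 on GRCm38. On chromosome 14, Pcdh20 (chr14:88464743-88471396) and Pcdh9 (chr14:93013410-93890679) were lower in VGAT+PITX3 cells, while Pcdh17 (chr14:84443563-84539002) and Pcdh8 (chr14:79766775-79771312) did not pass. On chromosome 15, a run of type II cadherins holds Cdh6 (chr15:13028701-13173675), Cdh9 (chr15:16728756-16857094), Cdh10 (chr15:18818947-19014236), Cdh12 (chr15:20449265-21589533) and Cdh18 (chr15:22549022-23474418), of which Cdh12 alone passed. Cdh11 (chr8:102632095-102785642) and Cdh8 (chr8:99024471-99416471) lie on chromosome 8, Pcdh10 (chr3:45378398-45435623) on chromosome 3 and Cdh20 (chr1:104768529-104995481) on chromosome 1. Cdh4 (chr2:179442431-179899373) and Cdh22 (chr2:165111507-165234853) are both on chromosome 2 and moved in opposite directions. Cdh23 (chr10:60302748-60696490) is on chromosome 10. Pcdh19 (chrX:133582860-133688987) and Pcdh11x (chrX:120290259-120910619) are on the X chromosome. Genes on the opposite strand that share exon sequence with a member had at most 670 counts, those of 4932441J04Rik beside Pcdh7, and strandedness of the counting is not given in the sources used here.

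Upstream sequence was at hand for 22 of the 34 members (RefSeq, GRCm38.p6, 250 bases before the start), and it is shown for 2 members that were higher and 2 that were lower in VGAT+PITX3 cells. Capitals mark CG dinucleotides, and all are written 5′ to 3′ on the strand of the gene. They are Pcdh10 (chr3:45378148-45378397, plus strand), Cdh20 (chr1:104768270-104768519, plus strand), Pcdh20 (chr14:88471397-88471646, minus strand) and Pcdh9 (chr14:93890680-93890929, minus strand).
Pcdh10: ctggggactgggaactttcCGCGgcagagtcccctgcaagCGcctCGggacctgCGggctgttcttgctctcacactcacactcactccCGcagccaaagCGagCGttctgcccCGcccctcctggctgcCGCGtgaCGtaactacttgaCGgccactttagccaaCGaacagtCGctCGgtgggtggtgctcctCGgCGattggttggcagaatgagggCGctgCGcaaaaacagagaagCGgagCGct
Cdh20: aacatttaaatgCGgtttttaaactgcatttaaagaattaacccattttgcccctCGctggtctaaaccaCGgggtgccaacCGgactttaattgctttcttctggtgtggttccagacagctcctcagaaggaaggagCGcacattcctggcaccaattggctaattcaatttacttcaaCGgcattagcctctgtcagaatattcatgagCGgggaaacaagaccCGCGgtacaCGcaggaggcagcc
Pcdh20: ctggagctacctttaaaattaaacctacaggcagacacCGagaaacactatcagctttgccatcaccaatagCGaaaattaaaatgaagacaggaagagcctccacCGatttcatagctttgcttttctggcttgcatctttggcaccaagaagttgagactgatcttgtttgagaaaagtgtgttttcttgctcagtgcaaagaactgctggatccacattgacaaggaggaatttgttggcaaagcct
Pcdh9: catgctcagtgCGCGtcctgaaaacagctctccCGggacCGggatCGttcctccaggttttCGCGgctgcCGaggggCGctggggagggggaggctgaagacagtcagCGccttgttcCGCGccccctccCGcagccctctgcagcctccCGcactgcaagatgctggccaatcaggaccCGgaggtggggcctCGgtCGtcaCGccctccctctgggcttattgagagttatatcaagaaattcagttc
The Pcdh10 and Pcdh9 windows, from genes that moved in opposite directions, held 22 and 18 CG dinucleotides, and those of Cdh20 and Pcdh20 held 10 and 3. The median was 9 over the 22 member windows and 6 over 27025 genes. The letters TAATCC, which Pitx and Otx proteins bind, were present on either strand in 2 of the 22 member windows, those of Cdh7 and Cdh26, and in 6.38% of all windows. TAATTA, a core letter run of many homeodomain proteins, and AGATAA, bound by GATA factors, were in 0 of the 22, against 4.90% and 10.3% of all. Cdh7 did not pass the test between the sorts, and Cdh26 was not tested.

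Partners of the cadherins inside and beside the membrane were mostly level between the sorts. Of 18 catenins, nectins and other partners, 1 was higher and 1 lower in VGAT+PITX3 cells, close to the 8.73% of all genes that passed. Ctnna1, an alpha-catenin, was at 43.7 and 70.7 CPM on the VGAT+PITX3 plates against 6.02 to 12.1 CPM on the VGAT plates (log2 fold change 2.87 ± 0.23, adjusted p = 2.5e-07). The alpha-catenins Ctnna2 and Ctnna3 did not pass. Nectin1, an adhesion protein of the junction that cadherins share, was at 49.1 and 68.7 CPM on the VGAT+PITX3 plates against 87.3 to 110.4 CPM on the VGAT plates (-0.76 ± 0.14, adjusted p = 0.002). Of 18 further members of the cadherin superfamily, 12 were tested, 2 were higher and 2 lower, beside the same 8.73%. Ret, the GDNF receptor with cadherin-like repeats that marks dopamine neurons, was at 234 and 359 CPM on the VGAT+PITX3 plates against 11.3 to 26.7 CPM on the VGAT plates (3.93 ± 0.16, adjusted p = 7.1e-11), and the large cadherin Fat4 at 57.6 and 59.8 CPM on the VGAT+PITX3 plates against 20.1 to 32.8 CPM on the VGAT plates (1.05 ± 0.16, adjusted p = 2.6e-04). Fat1 went the other way, at 20.1 and 21.6 CPM on the VGAT+PITX3 plates against 69.2 to 104 CPM on the VGAT plates (-2.07 ± 0.19, adjusted p = 9.5e-07), as did Dchs2 (-1.12 ± 0.25, adjusted p = 0.0087). Nectin1 did not pass without the VGAT+PITX3 plate at E16 (adjusted p = 0.16), and Dchs2 did not pass when either VGAT+PITX3 plate was left out or with exonic counts.

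The VGAT+PITX3 cells themselves were not uniform in their cadherins. Each VGAT+PITX3 plate was divided at the median level of Slc6a3, the dopamine transporter, into 152 cells above and 152 at or under it at E16, and 135 and 136 at P0. The division is a range and not a cell type, since 117 and 134 cells had 0 counts of Slc6a3 and 46 and 36 cells had 1, and there is 1 sample of each kind per plate, so no test was made. The median cell had 14929 counts above and 13376 under the median at E16, and 8075 and 7128 at P0. Cells above it had more Th (952 against 66.4 CPM at E16 and 756 against 102 CPM at P0) and less Gad2 (164 against 1746 CPM at E16 and 432 against 1650.3 CPM at P0). Slc17a6, the glutamate transporter gene, was lower in them as well (25.0 against 191 CPM at E16 and 113 against 293 CPM at P0), and Sox6 (338 against 16.4 CPM at E16 and 141 against 7.38 CPM at P0) and Aldh1a1 (3848 against 72.0 CPM at E16 and 2932 against 194 CPM at P0) were higher. The part of these cell differences in the members' values was not tested. Over genes with at least 10 counts in each set of cells, 5 of 23 members differed by more than 2-fold in the same direction on both plates, beside 2.68% of 9734 genes.

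Cells with less Slc6a3 had more Cdh6, a type II cadherin (above against under the median: 96.1 against 476 CPM at E16 and 144 against 491 CPM at P0). That is 4.95-fold and 3.41-fold more in the cells with less Slc6a3, although Cdh6 did not pass between the sorts. Cdh12 behaved alike (25.8 against 139 CPM at E16 and 50.4 against 186 CPM at P0), and so did Pcdh11x (18.2 against 81.4 CPM at E16 and 48.8 against 101 CPM at P0). In the other direction, Cdh18 was higher in the cells with more Slc6a3 (197 against 53.3 CPM at E16 and 338 against 82.1 CPM at P0), as was the delta-2 protocadherin Pcdh18 (98.1 against 34.1 CPM at E16 and 97.6 against 40.6 CPM at P0). These are 3.69-fold and 4.11-fold for Cdh18 and 2.87-fold and 2.40-fold for Pcdh18. Cdh6, Cdh12 and Cdh18 are members of the same run of genes on chromosome 15 and were split between the sets. Under 2-fold on one plate but in the same direction on both were Cdh11 (451 against 162 CPM at E16 and 364 against 215 CPM at P0), Pcdh17 (596 against 226 CPM at E16 and 586 against 336 CPM at P0) and Pcdh7 (406 against 993 CPM at E16 and 605 against 979 CPM at P0). Cdh4, which was higher in VGAT+PITX3 cells as a whole, was close to even (407 against 446 CPM at E16 and 586 against 553 CPM at P0), whereas Pcdh10 was higher in cells with less Slc6a3 (551 against 899 CPM at E16 and 541 against 896 CPM at P0).

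**Figure D3:**
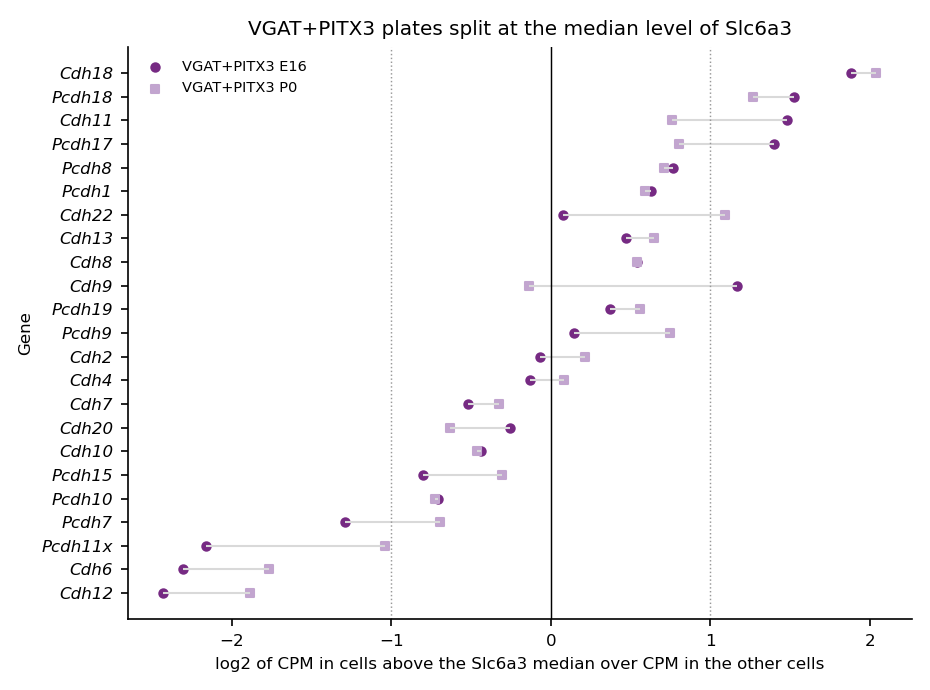
log2 ratio of the CPM in VGAT+PITX3 cells above the Slc6a3 median of their plate over that in the other cells (horizontal axis, dotted lines at 2-fold), for the 23 members with at least 10 counts in each set, at E16 and P0. Both plates put Cdh12, Cdh6 and Pcdh11x beyond 2-fold on the left and Pcdh18 and Cdh18 beyond it on the right.

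Between E16 and P0, 2 of 27 members fell in VGAT cells and 0 rose, beside 1.82% and 2.8% of 13639 genes (edgeR over 7 plates, 630 genes or 4.62% in either direction). The plates of the stages did not overlap for 5 of 27 members, against 20.5% of genes. At an unadjusted p under 0.05 there were 9 of 27 members, beside 23.7% of the genes. Cdh6 was at 288, 223, 371 and 289 CPM at E16 and 93.7, 126 and 180.5 CPM at P0 in VGAT cells. The stages did not overlap (log2 fold change -1.10, SE 0.22, adjusted p = 0.025). Cdh2 was at 217, 218, 235 and 226 CPM at E16 and 167, 161 and 109 CPM at P0, again without overlap (log2 fold change -0.62, SE 0.14, adjusted p = 0.031). Exonic Cdh2 alone had a log2 fold change of 0.05. Neither call was stable: 0 members passed with exonic counts, 0 without each of VGAT E16 replicates 1, 3 and 4, 1 without VGAT P0 replicate 2 or 3, and 0 with the second plate label, under which 1 of 13639 genes passed and the Cdh6 and Cdh2 values were above 0 (0.41 and 0.23 on the log2 scale). The median share of exonic counts per cell also differed between the stages, at 72.1% to 76.7% on the E16 plates and 75.3% to 80.6% on the P0 plates, and its part in the result was not tested.

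Among members with high total counts that did not pass, Pcdh7 had a log2 fold change of -0.39 ± 0.12 (adjusted p = 0.079), Pcdh9 of -0.39 ± 0.15 (0.13), Pcdh15 of -0.51 ± 0.21 (0.16), Cdh8 of -0.38 ± 0.18 (0.23) and Cdh4 of -0.48 ± 0.17 (0.11). Each of these passed without the filter on low counts, as did Cdh11 (-0.42 ± 0.15) and Cdh12 (-0.33 ± 0.12), and Pcdh7 also passed with DESeq2 and without VGAT E16 replicate 2. Cdh13, Pcdh17, Pcdh10 and Pcdh11x had -0.28 ± 0.16, -0.10 ± 0.13, -0.15 ± 0.17 and -0.30 ± 0.48, with no call in any of the settings run. The other 14 lay between -0.22 for Pcdh18 and 1.10 for Cdh15. Of the partners, Adam10, a protease that cuts N-cadherin, was lower at P0 (log2 fold change -0.49 ± 0.12, adjusted p = 0.036), where 4.62% of all genes passed, and no catenin or large cadherin did. The Adam10 call passed in 7 of 15 other settings, and with the second plate label the log2 fold change was 0.14 (adjusted p = 0.94).

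In VGAT+PITX3 cells, with 1 plate at each stage, 23 of 27 members were higher at P0 than at E16, beside 50.9% of 15724 genes. By the mean of the VGAT plates 7 of 27 were higher at P0, beside 52.2% of genes. The difference between the 2 changes was above 0 for 26 of the 27 members, beside 49.3% of genes, with a median of 0.38 on the log2 scale over the members and -0.01 over all genes. In a fit of that difference (edgeR interaction term over 9 plates) the spread comes from the VGAT plates alone. A difference between the VGAT+PITX3 plates that is not due to stage cannot be told apart from a stage change. No single member is therefore called, and sizes alone are given. Pcdh9 went from 302 CPM at E16 to 616 CPM at P0 on the VGAT+PITX3 plates and from a mean of 2686 to 2027 CPM on the VGAT plates (edgeR log2 difference 1.43). For Cdh6 the difference was 1.27. With the second plate label the members' median difference was 0.0012, so this shift was seen with the stages of the sample titles and not with those of the second label. The exonic share per cell moved with it, at 76.3% on the VGAT+PITX3 plate at E16 and 74.0% at P0, and with exonic counts alone the members' median was 0.40. The median difference was -0.06 over 18 catenins and other partners and 0.09 over 14 further members of the cadherin superfamily.

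**Figure D4:**
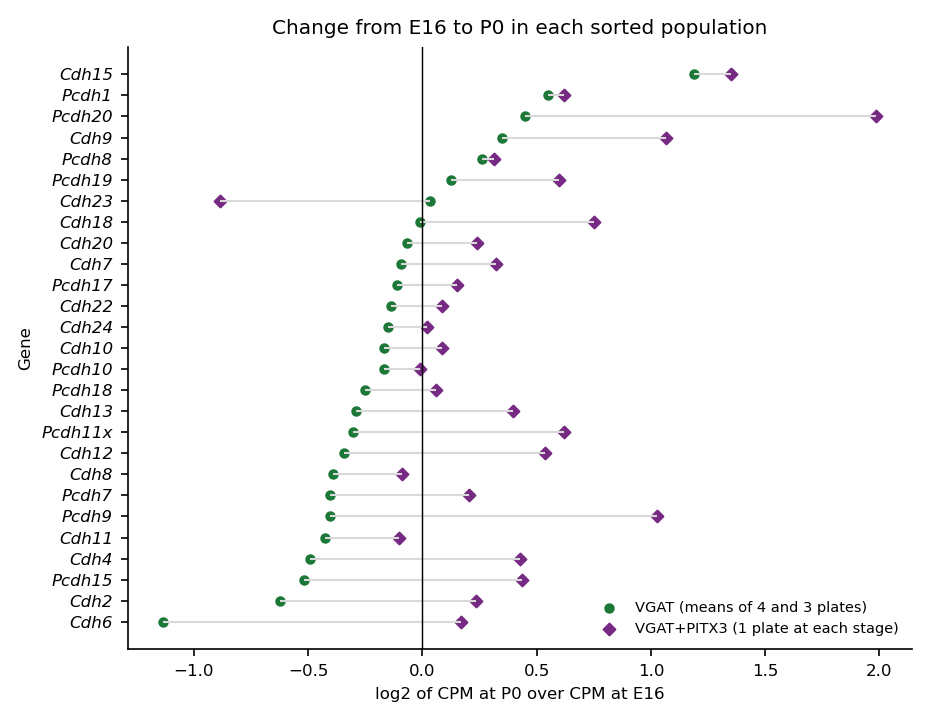
log2 ratio of the level at P0 over E16 (horizontal axis) for each tested member, in VGAT cells (circles, from means of 4 and 3 plates) and in VGAT+PITX3 cells (diamonds, 1 plate at each stage, no error). Diamonds lie to the right of circles for all members drawn but Cdh23, with the stages as in the sample titles.

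The VGAT cells belong to several nuclei, and the question was whether these differ in cadherins. VGAT cells with a count of 1 of 4 regional transcription factors and 0 counts of the other 3 were taken as classes: Six3 and Pax5, used by the study as markers of GABAergic neurons of the substantia nigra pars reticulata, Otx2 of the VTA and Nkx2-2 of the reticular formation. Classes of at least 5 cells on a plate were summed, which gave 275 Six3 cells on 7 plates, 118 Pax5 cells on 5, 70 Otx2 cells on 6 and 131 Nkx2-2 cells on 6. A class is a range of cells with a detected count. Cells of 1 nucleus may fall outside it and cells of other nuclei inside it. The study reports Otx2 also in the reticular formation and the caudal interpeduncular nucleus. Each class was compared with the mean of the other 3, with the plate as a block (edgeR, 10651 genes, 26 members, without Cdh15). The 4 comparisons share cells, so their values are given side by side and not as separate evidence. Members past the threshold were 0 for Six3, 5 for Pax5, 3 for Otx2 and 5 for Nkx2-2, beside 0.732%, 2.87%, 3.32% and 1.77% of all genes. By direction, 2 members were higher and 3 lower in Pax5 cells, where 2% of genes were higher and 0.873% lower. In Otx2 cells 2 were higher and 1 lower, beside 2.01% and 1.31% of genes. In Nkx2-2 cells all 5 were higher, beside 0.911% of genes higher and 0.854% lower. For Six3 the shares of genes were 0.648% higher and 0.0845% lower.

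Pax5 cells were low in Pcdh9. On their 5 plates it was at 303, 228, 385, 1023 and 441 CPM (4 of these under every Six3, Otx2 and Nkx2-2 value), against 596 to 2273 CPM with a median of 1695 in Six3 cells, 1588 to 4101 CPM with a median of 3008 in Otx2 cells and 1760.5 to 4623 CPM with a median of 3483 in Nkx2-2 cells. The difference was -2.61 ± 0.38 on the log2 scale (adjusted p = 9.0e-04), lower on 5 of 5 plates, and it passed in all 13 other settings run. Cdh18 (-1.29 ± 0.32, adjusted p = 0.04) and Cdh22 (-1.15 ± 0.31, 0.026), both type II cadherins, were also lower, with 135 ± 64.8 CPM (SD, n = 5 plates) of Cdh18 and 16.3 ± 11.2 CPM of Cdh22 in Pax5 cells. These calls were less stable: Cdh18 passed in 5 of 12 other settings and Cdh22 in 8 of 13, not with exonic counts (adjusted p = 0.59). In turn, Cdh4 was higher, at 433, 636, 1221, 352 and 102 CPM in Pax5 cells against 143 to 354 CPM with a median of 179 in Six3 cells. It was above the mean of the other classes on 4 of 5 plates (1.61 ± 0.34, adjusted p = 0.017). Pcdh8, a delta-2 protocadherin induced by synaptic activity, was at 62.6, 162, 161, 201 and 102 CPM in Pax5 cells and 76.7 to 116 CPM with a median of 95.9 in Six3 cells, again higher on 4 of 5 plates (0.71 ± 0.17, adjusted p = 0.0096). Neither Cdh4 nor Pcdh8 passed without VGAT E16 replicate 3 or 4, when 2 members passed in all, and without replicate 2, 3 members passed.

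Nkx2-2 cells had more of 5 members and less of none past the threshold. Cdh23 was at 5.95 to 89.6 CPM with a median of 62.7 over 6 plates, 0 to 38.8 CPM with a median of 31.6 in Six3 cells and 0 to 21.0 CPM with a median of 1.51 in Otx2 cells, while Pax5 cells had at most 7.41 CPM on 4 plates and 117 CPM on VGAT P0 replicate 2. The Nkx2-2 difference was 2.49 ± 0.41 (adjusted p = 9.7e-04), higher on 5 of 6 plates. Pcdh9 (1.43 ± 0.27, adjusted p = 0.011), Cdh18 (1.33 ± 0.24, 0.0088) and Cdh22 (1.31 ± 0.24, 4.5e-04) were each higher on 6 of 6 plates. Cdh22 did not pass with exonic counts (adjusted p = 0.25), Cdh18 did not pass where a cell needed 2 counts of the factor (0.078), and Cdh23 did not pass without VGAT E16 replicate 4 (0.08). Their means in Nkx2-2 cells for Pcdh9, Cdh18 and Cdh22 were 3466 ± 1024 CPM, 497 ± 260.3 CPM and 60.0 ± 16.4 CPM (SD, n = 6). Pcdh15, the lower part of the tip link, was higher by 0.79 ± 0.19 (adjusted p = 0.044), close to the threshold, on 5 of 6 plates, and passed in 7 of 13 other settings. Of these, Pcdh9, Cdh23 and Cdh22 were also among the members lower in VGAT+PITX3 cells. Without VGAT E16 replicate 4, 2 members passed, and without replicate 3, 3, and Pcdh9 was lost in both.

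Otx2 cells had more Cdh6, at 94.7 to 775 CPM with a median of 300.3 over 6 plates, against 29.8 to 188 CPM with a median of 115 in Six3, 16.8 to 229 CPM with a median of 31.3 in Pax5 and 27.3 to 113 CPM with a median of 62.4 in Nkx2-2 cells. Although the plates varied widely, Cdh6 was higher on 6 of 6 (2.10 ± 0.44, adjusted p = 0.015, and 0.26 without VGAT E16 replicate 4). Pcdh9 was higher too (1.11 ± 0.27, adjusted p = 0.041), on 5 of 6 plates, and passed in 6 of 13 other settings, not with exonic counts (adjusted p = 0.09). Pcdh15 was lower on 6 of 6 plates, at 342 ± 149 CPM against 859 ± 339 CPM in Six3 cells (n = 6 and 7 plates, -1.17 ± 0.22, adjusted p = 0.0064, and 0.065 where a cell needed 2 counts of the factor). Without VGAT E16 replicate 4, 1 member passed. Cdh4 (-1.26 ± 0.42, adjusted p = 0.15) and Cdh8 (-1.13 ± 0.33, 0.095) passed with DESeq2, and Cdh8 also with exonic counts (adjusted p = 0.012).

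Six3 cells had no member past the threshold with edgeR, and 5 members and 725 genes at an unadjusted p under 0.05. DESeq2 also called 0 members. The nearest were Pcdh19 (0.80 ± 0.23, adjusted p = 0.22), Pcdh15 (0.53 ± 0.18, 0.38) and Cdh23 (1.21 ± 0.44, 0.38), and Cdh23 passed with exonic counts (adjusted p = 0.0072), without VGAT P0 replicate 2 (0.033) and when genes with low counts were not filtered out (0.013). Pcdh10 (0.47 ± 0.18, adjusted p = 0.47) passed without VGAT P0 replicate 3 and also without that filter (adjusted p = 8.8e-04 and 0.0024).

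In each class, some members passed only in another setting. For Pax5 these were Pcdh19 (-1.13 ± 0.31), Pcdh7 (-0.60 ± 0.18), Cdh8 (0.93 ± 0.29), Cdh10 (0.61 ± 0.24), Pcdh10 (0.49 ± 0.20), Cdh12 (-0.71 ± 0.33) and Cdh23 (-1.25 ± 0.68), of which Cdh8 and Cdh12 passed with exonic counts (adjusted p = 0.019 and 0.042). For Otx2 they were Cdh23 (-2.45 ± 0.82) and Pcdh10 (-0.44 ± 0.21) beside Cdh4 and Cdh8. For Nkx2-2 they were Pcdh11x (1.54 ± 0.38, adjusted p = 0.056), Cdh12 (1.08 ± 0.27, 0.056), Pcdh19 (0.86 ± 0.24), Pcdh7 (0.34 ± 0.15), Pcdh10 (-0.52 ± 0.20) and Cdh11 (-0.71 ± 0.31), of which Pcdh11x and Cdh12 passed with exonic counts (adjusted p = 0.036 and 0.049). Cdh13 and Pcdh17 lay between -0.39 and 0.47 in the 4 comparisons, with no call in any setting run.

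**Figure D5:**
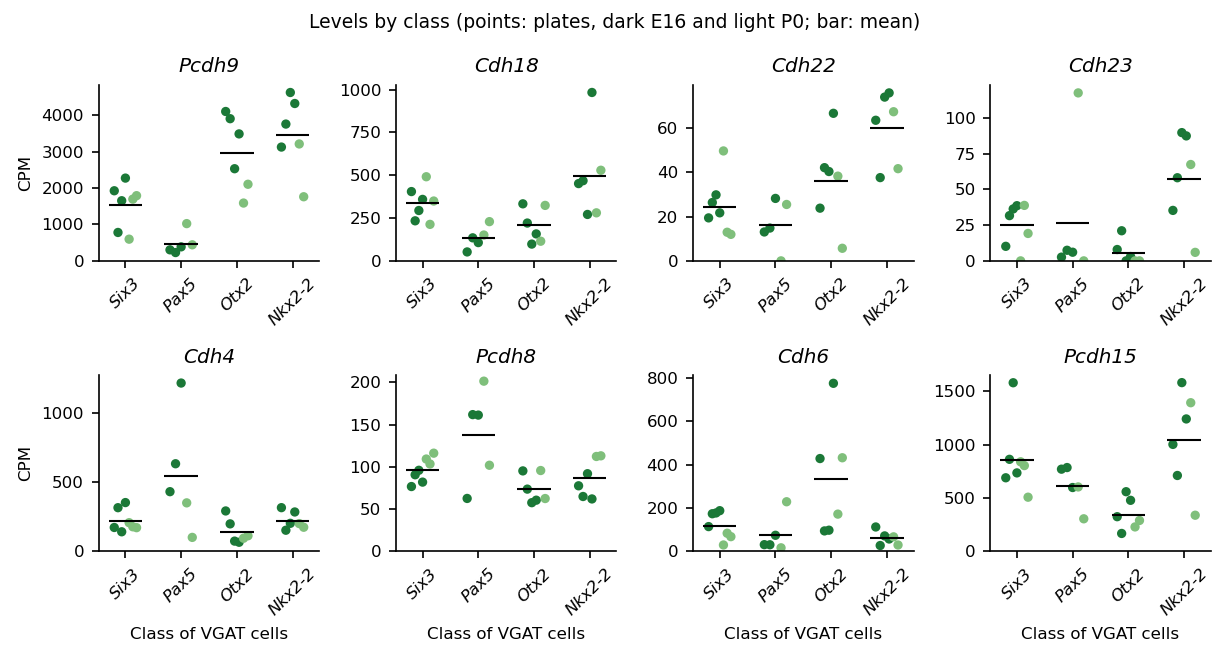
Level in CPM (vertical axes, from 0) of the 8 members past the threshold in at least 1 class of VGAT cells, with 1 point per plate (dark E16, light P0) and a bar at the mean. Pcdh9 is lowest in Pax5 cells and highest in Otx2 and Nkx2-2 cells, and Cdh6 stands out in Otx2 cells with a wide spread between plates.

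Partners differed between classes in small numbers, to be read beside the 2.87%, 3.32% and 1.77% of all genes that passed for Pax5, Otx2 and Nkx2-2. Of 16 catenins and other partners tested, 2 were higher in Pax5 cells, beta-catenin (Ctnnb1, log2 fold change 0.58 ± 0.13, adjusted p = 0.0026) and the neuronal delta-catenin Ctnnd2 (0.42 ± 0.11, adjusted p = 0.014). In Nkx2-2 cells Ctnnd2 was lower (-0.42 ± 0.10, adjusted p = 0.013) and Nectin1 higher (0.99 ± 0.19, adjusted p = 0.0033). Of 12 large or atypical cadherins tested, 3 were lower in Pax5 cells, namely Fat1 (-1.95 ± 0.44, adjusted p = 0.023), Dchs2 (-1.67 ± 0.44, adjusted p = 0.022) and the calsyntenin Clstn2 (-0.88 ± 0.20, adjusted p = 0.013). Fat1 was higher in Otx2 cells (1.64 ± 0.33, adjusted p = 0.011), as was Clstn2 (0.66 ± 0.17, adjusted p = 0.037), and Dchs2 was higher in Nkx2-2 cells (1.66 ± 0.29, adjusted p = 4.9e-04). Six3 cells had none. In other settings Ctnnd2 passed in 7 of 13 for Pax5 and 6 of 13 for Nkx2-2, Dchs2 for Pax5 and Clstn2 for Otx2 in 7 of 13 each, and the others in 9 to 12 of 13.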

How the data were processed

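Single cells were sorted into plates and sequenced with CEL-seq2, which tags the 3′ end of each molecule with a unique identifier. The authors aligned reads to GRCm38 with STAR and deposited expected counts per gene and well, exonic and total, with molecule numbers corrected for repeated identifiers. Of the values above 0, 51.7% were not whole, and 100.0% lay within 0.001 of the value that a whole number of observed identifiers gives with 4096 identifiers. Wells were kept by limits near those stated by the study: its upper limit of 50000 was applied to counts, not genes, its exonic limit of 85%, which would keep 151 wells, was not applied, and its limits of 20% ribosomal and 30% spike-in counts would remove 0 of the wells kept. Kept wells were summed per plate, or per plate and class with at least 5 cells, and rounded. Tests used edgeR 4.0.16 (TMM, filterByExpr, robust quasi-likelihood) in R 4.3.3 with Benjamini-Hochberg adjustment over all genes, after tests on simulated data. SE is the fold change over the square root of F. Alternatives were DESeq2 1.42.0, RLE factors, no filter on low counts, exonic counts, other limits on cells, blocks and each plate left out. Shares used cells thinned to 4000 counts, leaving out 78. Intervals and floors cover counting error only. Doublets were not called, and a limit of 2 times the plate's median count was tried instead. Members and lists were chosen with earlier results of these data known. Every member past the threshold is named, with those among the 10 highest or that changed their call under an alternative.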

Additional observations from a re-analysis of the deposited data

Results flagged for a closer look

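Of 67 sets of 4 to 7 plates checked for 1 value far from the others, 4 stood out, and chance picks about 1 in 20. Pcdh1, a delta-1 protocadherin, was at 67.9 CPM on VGAT P0 replicate 2, and the next VGAT plate was at 32.2 CPM. The same plate had the most RNA of astrocyte and radial glia markers, 414 CPM summed against a median of 51.8 CPM, and its part in the Pcdh1 level was not tested. Pcdh9 in Pax5 cells was at 1023 CPM on this plate too, with the next plate at 441 CPM, so that the low level of Pcdh9 in Pax5 cells was least marked there. Pcdh18 was low on VGAT E16 replicate 1, at 49.0 CPM, with the next plate of that stage at 68.0 CPM. Cdh18 in Nkx2-2 cells was at 984 CPM on VGAT E16 replicate 4, with the next plate at 529 CPM, and Cdh18 still passed without that plate.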

How the results depend on the processing

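The number of members past the threshold between the sorts stayed within 1.5 times 11 under all settings but 1, and was 7 without the VGAT+PITX3 plate at E16. Leaving out 1 plate at a time gave 7 to 12 members. Cdh11, Cdh12, Pcdh10, Pcdh19, Pcdh20 and Pcdh9 passed under all 17 settings. Between stages in VGAT cells, 9 members passed without the filter on low counts, 0 with exonic counts, 1 without cells above 2 times the median count of their plate and 0 with the second plate label, a setting added after the data were seen. Leaving out a plate gave 0 to 3, with 0 without VGAT E16 replicate 1, 3 or 4. Cdh2 reversed to a log2 fold change of 0.046 with exonic counts and 0.23 with the second label, and Cdh6 to 0.41 with the second label. The cause was not tested. For the difference of the stage changes, the members' median lay between 0.348 and 0.597 in the other settings that used the stages of the sample titles. Leaving out either VGAT+PITX3 plate could not be fitted. For Six3 cells no filter gave 2 members and exonic counts gave 1, for Otx2 cells DESeq2 gave 5 and for Nkx2-2 cells DESeq2 gave 8. The share of all genes called in each setting is not given beside the counts of this section. A rise or fall in them can therefore not be read as a trait of the family. Leaving out a plate gave 0 to 1 for Six3, 2 to 6 for Pax5, 1 to 3 for Otx2 and 2 to 7 for Nkx2-2. VGAT E16 replicates 3 and 4 hold most Pax5, Otx2 and Nkx2-2 cells. For each of these classes the lowest count came without replicate 4, and for Pax5 also without replicate 3.

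With the replicate number as a block, 10 members passed between the sorts and 2 between stages. The labels do not say that equal numbers pair plates. Same-numbered plates of the 2 stages had correlations of deviations of 0.0376, 0.0636 and 0.0444 over genes, and plates of unlike number had -0.0736 to 0.0505. Whether plates were paired cannot be told from these values. Plates were few, with 2 VGAT+PITX3 plates and 5 to 7 plates per class, and some classes had as few as 6 cells on a plate. Which of these limited the precision more was not tested. Members under 20 counts could not be compared at this depth.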
